A study of Mus musculus with 6 samples.

Results

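The 8 genes described here encode peroxins, the proteins that carry enzymes into the peroxisome: Pex26, Pex6, Pex5, Pex7, Pex13, Pex14, Pex2 and Pex10. They were taken by symbol from the deposited tables, which list 55401 gene models, and each symbol matched 1 model. Pex26 was picked because it was among the larger rises in these libraries, and the other 7 because their proteins work with it in import, so the change of Pex26 is given as a description and not as a test. The cells were NIH3T3, a mouse embryonic fibroblast line of wild-type genotype. Of 6 mRNA libraries, 3 were labelled as given DMSO, the vehicle, and 3 as given IPRN. The series title names angelicin, a furanocoumarin of plants, and the design text says that hydrogen peroxide and TGF-β were used to induce the cells. The labels do not say what IPRN stands for, tie neither stimulus to a library and give no dose or time. Whether replicates came from separate cultures is not stated either, so the spread behind each p-value may be technical.

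Peroxisomes break down very long fatty acids, make ether lipids and both produce and destroy hydrogen peroxide, and they import their enzymes already folded from the cytosol. Pex5 binds enzymes that carry a C-terminal (type 1) signal, and Pex7 binds the few that carry an N-terminal (type 2) signal. Loaded receptors dock on Pex13 and Pex14, Pex2 and Pex10 help attach ubiquitin to Pex5, and the ATPase Pex6, held at the membrane by Pex26, helps pull Pex5 back out for another round. Loss of any of these genes in people causes disorders of the Zellweger spectrum or a related disease.

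Total counts per library ran from 60320282 to 78629444, and all 8 genes passed the filter on low counts. The 12 fibroblast markers all had counts in every library. They summed to 24217 to 25272 CPM (counts scaled to library size by the TMM method) in DMSO and 26607 to 29202 CPM in IPRN. These sums did not overlap, as held for 29.6% of single tested genes. EdgeR (adjusted p under 0.05) called 3 of the 12 (2 of them higher), where it called 5.47% of all tested genes. Of the markers below it called only 1, a hepatocyte marker that was lower. The 26 hepatocyte markers summed to 44.0 to 118 CPM in DMSO and 22.7 to 160 CPM in IPRN, and 19 of them were at 0 in DMSO 1 and in IPRN 3, against 0 of them in each other library. The 9 macrophage markers summed to 3.46 to 14.9 CPM in DMSO and 15.6 to 126 CPM in IPRN, highest in IPRN 3. Endothelial, epithelial and adipocyte markers each summed to at most 13.3 CPM in every library. The part of these transcripts in the results below was not tested, except where values are given. In bulk RNA, fewer cells of a type and less RNA per cell cannot be told apart.

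Pex26, the tail-anchored membrane protein that holds the ATPase Pex6 at the peroxisome, lies on chromosome 6 from 121183667 to 121198837 on the plus strand (GRCm38, ENSMUSG00000067825). It measured 3.63, 3.67 and 6.03 CPM in DMSO 1, 2 and 3. In IPRN 1, 2 and 3 it measured 11.7, 9.72 and 9.83 CPM. Every IPRN library stood above every DMSO library, and DMSO 3 was the highest of its group. The raw counts behind these values were 218, 267 and 473 in DMSO and 836, 725 and 633 in IPRN. The edgeR fit over all genes put the log2 fold change at 1.23 ± 0.22 (SE), which is 2.34-fold, with a 95% interval from 1.63-fold to 3.37-fold and an adjusted p of 0.0295 that belongs to the choice of this gene. With 1 library left out the estimate ran from 1.10 to 1.51 on the log2 scale, but the gene was called only without DMSO 3 (adjusted p = 0.0162) and not in the other 5 fits (0.0594 to 0.121). Among the libraries where most hepatocyte markers were at 0, DMSO 1 (3.63 CPM) was next to DMSO 2 (3.67 CPM), and IPRN 3 (9.83 CPM) next to IPRN 2 (9.72 CPM). Without DMSO 1 and IPRN 3 the log2 fold change was 1.14 and Pex26 was not called (adjusted p = 0.220). Another fit added a term that only set these libraries apart from the others and used no transcript level (the liver term). With it the log2 fold change was 1.24 (adjusted p = 0.0495).

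**Figure D1:**
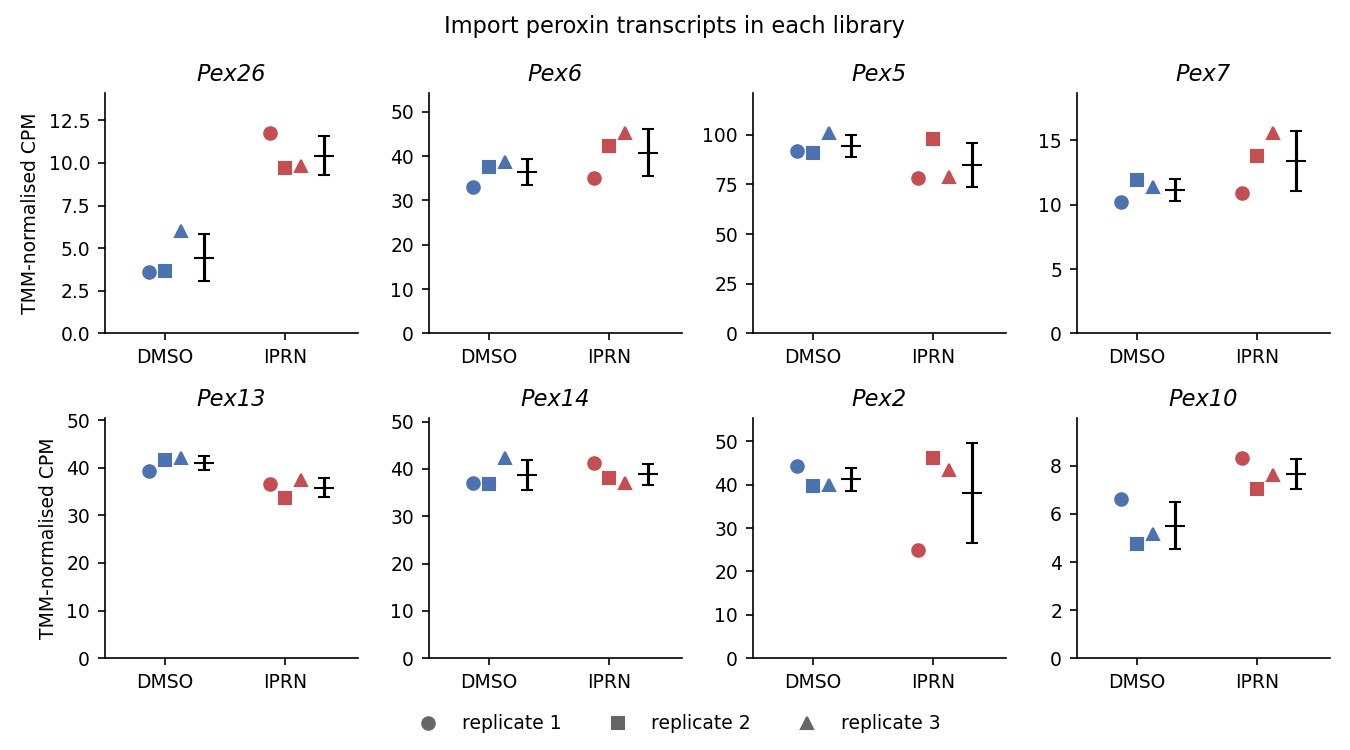
Level of each import peroxin in every library, in TMM-normalised CPM on axes that start at 0 and differ between panels. Symbols are the 3 replicates of DMSO (blue) and IPRN (red), and the bar beside them is the mean with its SD. Pex26 and Pex10 show the IPRN libraries above all DMSO libraries, Pex13 shows them below, and in the other 5 panels the groups overlap.

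The annotated exons of Pex26 cover 5667 bases, of which 133 (2.35%) are shared with Gm44014, a single-exon model of unverified status on the opposite strand. The shared stretch is an exon of the 1 transcript annotated for nonsense-mediated decay, and it lies in none of the 4 protein-coding transcripts. Gm44014 had 1 count in IPRN 1 and 0 counts in the other 5 libraries, against 218 to 836 counts for Pex26. Strand is not stated for the counting, so reads in those 133 bases could belong to either model. The tables count whole genes, so which Pex26 transcript changed cannot be read from them.

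**Figure D2:**
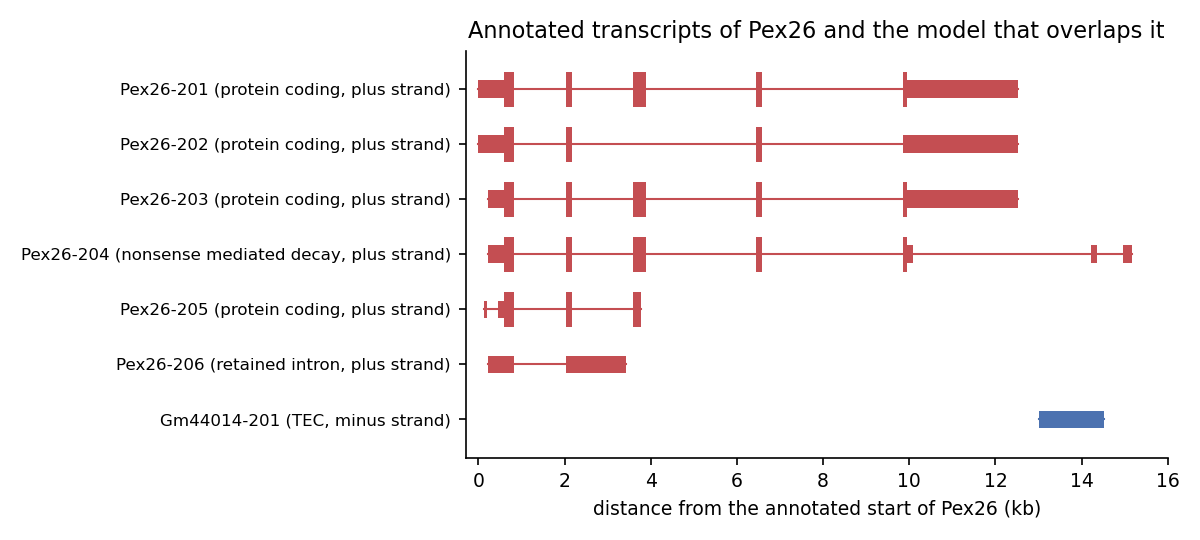
The 6 annotated transcripts of Pex26 (red) and the 1 transcript of Gm44014 (blue), drawn to scale as distance in kb from the annotated start of Pex26. Tall boxes are coding sequence, low boxes other exon sequence and lines introns. Gm44014 meets only 1 exon, in the transcript marked for nonsense-mediated decay.

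Promoter windows, 250 bases before and 50 bases after the annotated start, were found in the RefSeq table (GRCm38.p6) for 7 of the 8 genes. Those of Pex26, of its partner in the ATPase complex Pex6, and of Pex10 are shown because Pex26 changed most, Pex6 is the protein it anchors and Pex10 had the next largest estimate. They lie at chr6:121183417-121183716, plus strand, chr17:46711226-46711525, plus strand, and chr4:155066780-155067079, plus strand. Capitals mark GGGCGG, the core of the GC box, and CCGGAA, the core bound by ETS factors, on either strand. In Pex6 1 pair of CCGGAA matches overlaps.
Pex26: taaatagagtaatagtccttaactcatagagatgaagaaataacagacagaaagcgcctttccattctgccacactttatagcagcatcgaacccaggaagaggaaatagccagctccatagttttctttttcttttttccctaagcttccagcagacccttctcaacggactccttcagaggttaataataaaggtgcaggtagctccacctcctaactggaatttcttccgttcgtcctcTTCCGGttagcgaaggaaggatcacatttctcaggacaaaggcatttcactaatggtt
Pex6: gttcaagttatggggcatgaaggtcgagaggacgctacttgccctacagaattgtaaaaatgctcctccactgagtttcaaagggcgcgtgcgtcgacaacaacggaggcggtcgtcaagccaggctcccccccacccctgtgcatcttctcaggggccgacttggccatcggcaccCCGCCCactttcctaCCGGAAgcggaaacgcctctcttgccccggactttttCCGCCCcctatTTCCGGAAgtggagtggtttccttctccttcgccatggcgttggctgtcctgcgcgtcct
Pex10: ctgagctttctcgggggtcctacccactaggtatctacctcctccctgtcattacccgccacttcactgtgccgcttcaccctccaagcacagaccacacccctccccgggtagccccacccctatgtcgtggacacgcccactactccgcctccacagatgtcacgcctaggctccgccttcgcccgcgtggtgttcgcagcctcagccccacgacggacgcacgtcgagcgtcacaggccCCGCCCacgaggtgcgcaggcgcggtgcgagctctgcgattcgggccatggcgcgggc

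The Pex26 window held 0 copies of GGGCGG, while each of the other 6 genes had at least 1 copy in a window (for Pex5, in 2 of its 3 windows). Over all 32851 promoters in the table, 35.7% held it. CCGGAA was in the windows of Pex26, Pex6 and Pex7 and in 14.9% of all promoters. The Pex26 window had 7 CG dinucleotides, the fewest of the 9 windows and equal to the median of all promoters, and those of Pex6 and Pex10 had 22 and 29. On both strands, CACGTG (7.15% of all promoters), TGANTCA (7.81%) and the peroxisome proliferator response element (AGGTCA repeated after 1 base, 0.0396%) matched in none of the 9 windows. TGACGTCA matched only in Pex13 (1.79% of all promoters) and TGACNNNGC only in Pex7 (12.4%). A match is only a match of letters.

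The comparison asked whether the partners of Pex26 rose with it. By edgeR's quasi-likelihood fit (p adjusted by Benjamini-Hochberg), 0 of the 7 partners were called at an adjusted p under 0.05, where 5.47% of the 17159 tested genes were called (2.46% higher and 3.01% lower). With 7 genes, a count of 0 says little beside that share. At an unadjusted p under 0.05, Pex10 and Pex13 passed, which is 2 of 7, where 22.0% of all tested genes did, and DESeq2 called 0 of 7, where it called 13.5% of all genes. No partner was called in any of the 13 alternative fits, among them the fit with replicate number as a block, which called 0.600% of all genes. The median log2 fold change of the partners was 0.0045, and that of all tested genes 0.0016. Pex26 lay 1.22 above the median of its partners on the log2 scale, and this distance ran from 1.02 to 1.44 with 1 library left out. The groups did not overlap for 2 of the 7 partners, where that held for 29.6% of all tested genes: Pex10 was higher in IPRN (14.9% of all genes) and Pex13 lower (14.7%). For 6 of the 7, the 95% interval of the change ended below the start of the interval of Pex26, and Pex10 was the exception. Because Pex26 was picked for its rise, its distance from the partners and this comparison of intervals are descriptions and not tests.

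**Figure D3:**
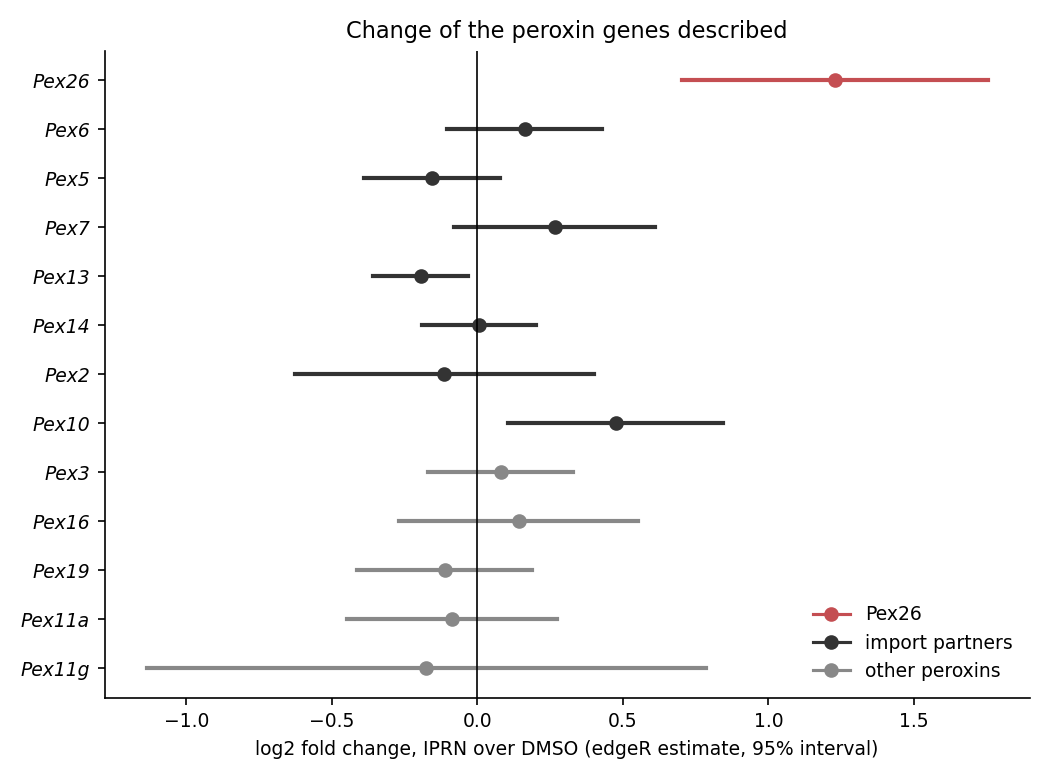
Log2 fold change of IPRN over DMSO for 13 tested peroxin genes, with points for the edgeR estimate and bars for its 95% interval. Pex26 (red) lies at 1.23, the 7 import partners (black) between -0.20 and 0.47, and 5 other peroxins (grey) between -0.18 and 0.14.

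Pex6, the ATPase that works on the platform Pex26 provides, lies on chromosome 17 from 46711463 to 46725541, plus strand. It measured 33.1, 37.6 and 38.6 CPM in DMSO and 35.0, 42.3 and 45.1 CPM in IPRN. The groups overlapped through IPRN 1, the lowest of its group. The log2 change was 0.16 ± 0.11 (SE, edgeR adjusted p = 0.479), and its 95% interval reached from 0.930-fold to 1.35-fold. Within each library the FPKM of Pex26 was 0.0729, 0.0651 and 0.104 of that of Pex6 in DMSO and 0.224, 0.154 and 0.146 of it in IPRN. The ratio was thus higher in every IPRN library, with means of 0.0807 ± 0.0207 and 0.175 ± 0.0433 (SD, n = 3). It uses the level that chose Pex26 and is a description.

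Pex10 and Pex2 are subunits of the RING-type ubiquitin ligase that marks Pex5 for recycling. Pex10, on chromosome 4 from 155067016 to 155072433, plus strand, measured 6.63, 4.75 and 5.18 CPM in DMSO and 8.32, 7.05 and 7.62 CPM in IPRN. The groups did not overlap, though DMSO 1 (6.63) and IPRN 2 (7.05) were close. Its estimate was 0.47 ± 0.16 (SE), or 1.39-fold with an interval from 1.08-fold to 1.80-fold, and it did not pass (edgeR adjusted p = 0.133, DESeq2 0.0620). With 1 library left out the adjusted p ran from 0.123 to 0.328.

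Pex2, on chromosome 3 from 5560188 to 5576150, minus strand, as the tables place it, measured 44.3, 39.6 and 39.9 CPM in DMSO and 25.0, 46.1 and 43.4 CPM in IPRN. IPRN 1 stood far below the other 5 libraries, and the other IPRN values lay within or just above the DMSO range. The log2 change was -0.11 ± 0.22 (SE, adjusted p = 0.831), and without IPRN 1 it was 0.12 (0.451). IPRN 1, the lowest library for Pex2, held the highest value of Pex26 and of Pex10.

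Pex13 and Pex14 form the docking complex in the membrane. Pex13, on chromosome 11 from 23646479 to 23665959, minus strand, measured 39.4, 41.7 and 42.0 CPM in DMSO and 36.5, 33.7 and 37.4 CPM in IPRN. All IPRN libraries lay below all DMSO libraries. The estimate was -0.20 ± 0.069 (SE), with an interval from 0.780-fold to 0.979-fold, and it did not pass (edgeR adjusted p = 0.158, DESeq2 0.0916). Pex14, on chromosome 4 from 148960535 to 149099876, minus strand, measured 37.1, 36.8 and 42.3 CPM in DMSO and 41.3, 38.1 and 37.1 CPM in IPRN. The groups covered nearly the same range, with a change of 0.0045 ± 0.083 (SE) and an interval from 0.876-fold to 1.15-fold. Pex14 shares 28.3% of its exon bases with the antisense model Gm17029, which had at most 80 counts in a library, so the value of Pex14 is uncertain to that extent.

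Pex5, the receptor for type 1 signals, on chromosome 6 from 124396816 to 124415067, minus strand, measured 92.0, 90.7 and 101 CPM in DMSO and 78.1, 97.7 and 78.7 CPM in IPRN. IPRN 1 and IPRN 3 lay below every DMSO library and IPRN 2 within their range. The log2 change was -0.15 ± 0.098 (SE, adjusted p = 0.435). Pex7, the receptor for type 2 signals, on chromosome 10 from 19853900 to 19907689, minus strand, measured 10.2, 11.9 and 11.4 CPM in DMSO and 10.9, 13.8 and 15.5 CPM in IPRN. Here IPRN 2 and IPRN 3 lay above the DMSO range and IPRN 1 within it, with a log2 change of 0.27 ± 0.15 (SE, adjusted p = 0.357). Its interval, from 0.946-fold to 1.53-fold, ended below that of Pex26.

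Levels of different genes were compared on the deposited FPKM scale, which divides by gene length. The lengths implied by count and FPKM followed the union of all annotated exons, 12092 bases for Pex7 and 5667 for Pex26, so genes with long rarely used exons are listed low. In DMSO the order by mean FPKM was Pex5 (21.5 ± 1.19, SD, n = 3), Pex2 (16.3 ± 1.03), Pex6 (8.61 ± 0.697), Pex13 (7.93 ± 0.279), Pex14 (5.54 ± 0.429), Pex10 (1.49 ± 0.263), Pex7 (0.827 ± 0.0659) and Pex26 (0.700 ± 0.216). Neighbours in that order did not overlap between libraries, except Pex6 with Pex13 and Pex7 with Pex26. In IPRN the mean of Pex26 was 1.65 ± 0.152 FPKM, above Pex7 (0.999 ± 0.189) and below Pex10 (2.08 ± 0.149), and neither pair overlapped. Pex26 was therefore the lowest or next to lowest of the 8 in every library, also after its rise. In IPRN, Pex5 with Pex2 and Pex2 with Pex6 overlapped. The 7 partners summed to 269 ± 9.88 CPM in DMSO and 260 ± 22.3 CPM in IPRN (SD, n = 3), with ranges that overlapped.

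Of 6 other peroxins listed, 5 were tested and 0 were called by edgeR or by DESeq2, and 0 had an unadjusted p under 0.05. Over all tested genes the shares were 5.47%, 13.5% and 22.0%, so with 5 genes a count of 0 says little. Their median log2 fold change was -0.088. In none did the groups separate, where 29.6% of all tested genes did, and with 5 genes this count too says little. The genes for insertion of membrane proteins averaged, under DMSO and IPRN in turn (SD, n = 3), 17.4 ± 0.912 and 18.4 ± 2.0 CPM (Pex3), 13.9 ± 0.796 and 15.3 ± 3.64 CPM (Pex16), and 79.2 ± 8.28 and 73.2 ± 11.3 CPM (Pex19). Pex3 and Pex16 share 5.25% and 7.15% of their exon bases with another model, and Pex11g 41.1%, so these values are uncertain to that extent. Pex11a and Pex11g, of a family that shapes and divides the organelle, had estimates of -0.088 and -0.18 on the log2 scale. Pex11g was rare (0.683 to 2.07 CPM), and its interval from 0.455-fold to 1.72-fold is too wide to set it apart from Pex26. Pex5l, a relative of Pex5 known from brain, had 0 to 12 counts per library and was not tested.

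Cargo of the import pathway was counted from lists of matrix enzymes. Of 46 listed, 38 were tested, of which 37 did not pass, 1 fell and 0 rose, where 5.47% of all tested genes were called. Their median log2 fold change was -0.018. The gene that fell was Idh1, the NADP-dependent isocitrate dehydrogenase of cytosol and peroxisome. It measured 157, 161 and 153 CPM in DMSO and 103, 120 and 126 CPM in IPRN, with no overlap, a 1.35-fold decrease and an edgeR adjusted p of 0.0294. The call of Idh1 was lost when any DMSO library or IPRN 2 was left out (adjusted p from 0.0828 to 0.126), with the liver term (0.0507), with the replicate block (0.102) and without DMSO 1 and IPRN 3 (0.185). Prdx5, a peroxiredoxin that reduces peroxides and had the highest FPKM in the list, measured 182 ± 18.6 and 188 ± 34.0 CPM, but 19.1% of its exon bases are shared with Trmt112. Catalase (Cat), which destroys hydrogen peroxide, measured 46.5, 54.3 and 52.3 CPM in DMSO and 64.7, 57.3 and 54.3 CPM in IPRN, and did not pass (edgeR adjusted p = 0.256). At an unadjusted p under 0.05, 8 of the 38 enzymes passed, near the 22.0% of all tested genes, and DESeq2 called 5, near its 13.5%, adding Crat, Gnpat and Mlycd (higher) and Ech1 (lower) to Idh1.

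Enzymes with a type 2 signal, the cargo of Pex7, were all 4 tested and none passed in edgeR or DESeq2, and 0 had an unadjusted p under 0.05, a count that says little beside shares of 5.47%, 13.5% and 22.0% over all genes. Agps, which forms the ether bond of ether lipids, averaged 136 ± 6.51 CPM under DMSO and 125 ± 5.91 CPM under IPRN (SD, n = 3). Acaa1a, a thiolase of fatty acid oxidation, measured 24.0 ± 1.45 and 28.6 ± 6.94 CPM. Acaa1a has a close copy, Acaa1b, and shares 6.57% of its exon bases with Myd88, so its counts are uncertain. Some enzymes known from liver had 0 counts in DMSO 1 and IPRN 3, the libraries where most hepatocyte markers were at 0. The urate oxidase gene Uox had 78, 42, 154 and 43 counts in DMSO 2, DMSO 3, IPRN 1 and IPRN 2, and Hao1, a glycolate oxidase, had 29, 19, 34 and 25. Not all low enzymes of the list followed this. Baat had 16 and 4 counts in DMSO 1 and IPRN 3 but 0 in DMSO 2 and IPRN 2. Ehhadh had 6 and 38 counts in DMSO 1 and IPRN 3. Cat, Pex26 and the partners were present in all 6 libraries.

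**Figure D4:**
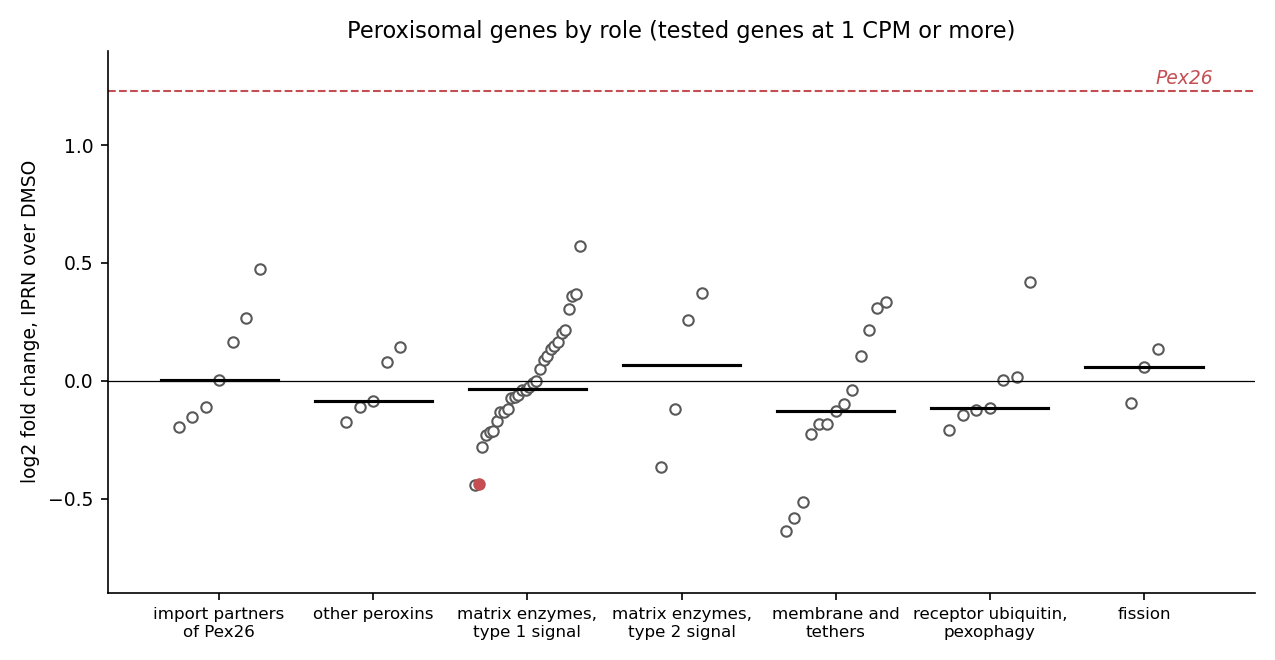
Log2 fold change of IPRN over DMSO for 69 tested peroxisomal genes other than Pex26 that averaged at least 1 CPM, grouped by role. A further 5 tested genes below that level are not drawn, among them Slc27a2 at 1.70. Each circle is a gene, filled red where edgeR called it (Idh1), black lines are medians and the dashed line is Pex26 at 1.23. Every circle lies between -0.64 and 0.57.

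Genes of the peroxisomal membrane, of fission and of receptor recycling numbered 25, and 24 were tested. By edgeR 0 were called (5.47% of all tested genes) and 6 had an unadjusted p under 0.05 (22.0%). DESeq2 called 4, near its share of 13.5% over all genes: Abcd2, Acbd5 and Far2 lower and Ube2d1 higher. Acbd5, a tether between peroxisome and endoplasmic reticulum, had the lowest estimate at -0.64 ± 0.15 (SE). The highest was 1.70 ± 1.70 (SE) for Slc27a2, a fatty acid transporter and acyl-CoA synthetase known from liver, with 0, 48 and 7 counts in DMSO and 126, 52 and 0 counts in IPRN (edgeR adjusted p = 0.643). Acbd5 measured 32.2, 34.1 and 36.5 CPM in DMSO and 18.1, 27.0 and 21.04 CPM in IPRN, with no overlap and an edgeR adjusted p of 0.0585. Acbd5 was called without IPRN 2 and with a filter at a mean of 50 counts. Ube2d1, a ubiquitin-conjugating enzyme of a family that acts on Pex5, measured 31.9, 30.9 and 32.8 CPM in DMSO and 50.3, 37.7 and 39.9 CPM in IPRN (adjusted p = 0.0862). Abcd3 and Slc25a17, a fatty acid transporter and a cofactor carrier, had adjusted p-values of 0.559 and 0.274. Those of Sqstm1 and Usp9x, a pexophagy receptor and a deubiquitinase that can act on Pex5, were 0.169 and 0.934, and those of the fission genes Fis1 and Dnm1l 0.360 and 0.529. Of 11 genes listed as regulators, 9 were tested and 0 were called by edgeR (5.47% of all tested genes). An unadjusted p under 0.05 was found for 2 (Ppargc1a, lower, and Tfe3, higher), and DESeq2 called 1 (Tfe3), again near the shares of 22.0% and 13.5% over all genes. Ppargc1a had the largest change of the list, -0.92 ± 0.31 on the log2 scale (SE, edgeR adjusted p = 0.133). It was rare, at 1.07 ± 0.105 CPM under DMSO and 0.563 ± 0.084 CPM under IPRN (SD, n = 3). Rxra and Rxrb, nuclear receptors that pair with the PPAR family, had adjusted p-values of 0.663 and 0.237, and Ppara and Pparg were too low to test. Cat, Crat, Gnpat, Mlycd, Ech1, Acbd5, Abcd2, Far2, Ube2d1, Uox, Hao1, Baat, Ehhadh, Slc27a2, Ppargc1a and Tfe3 are outside the rule for named genes and were chosen after their values were seen.

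A wider set came from the gene ontology terms in the deposited tables. The term peroxisome was attached to 134 genes, of which 111 were tested, and 3 rose and 8 fell (9.91%, against 5.47% of all tested genes), with a median log2 fold change of -0.028. Of the 8 that fell, Idi1, Fdps, Mvd and Pmvk encode enzymes of isoprenoid and sterol synthesis. The 3 that rose were Pex26, which was picked for its rise, Gbf1 and Tysnd1. Tysnd1, a protease that trims imported enzymes inside the peroxisome, rose 1.29-fold, from 32.7 ± 0.468 to 42.1 ± 3.11 CPM (SD, n = 3, edgeR adjusted p = 0.0406). The narrower term for protein import into the matrix held 11 genes, all tested, and Pex26 was the only 1 called. Of these 11, 7 are among the genes described above and Pex26 was picked for its rise, so this count mostly repeats that of the partners. These names too were chosen after the values were seen.

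On chromosome 6 the nearest tested gene before Pex26 was Mical3, which encodes an actin-oxidising enzyme and lies 52.7 kb away on the minus strand. Mical3 measured 25.6, 23.2 and 25.7 CPM in DMSO and 36.6, 32.3 and 33.5 CPM in IPRN, with no overlap. It rose 1.38-fold (log2 0.46 ± 0.083 SE, edgeR adjusted p = 0.0297) and was called only without IPRN 1 among the 6 fits with 1 library left out (0.0710 to 0.122 in the others). Mical3 was not called with the liver term (0.0629), with replicate number as a block (0.0948) or without DMSO 1 and IPRN 3 (0.225). On the other side the nearest was Usp18, 47.1 kb away, at 0.348 ± 0.201 and 0.267 ± 0.250 CPM (adjusted p = 0.859). Among 9689 tested genes averaging 5 CPM or more, those most like Pex26 over the 6 libraries were Sipa1, Smap2, Mettl26, Sall2 and Rexo1, with Pearson correlations of log2 CPM from 0.994 to 0.998. Sipa1 measured 48.3, 48.3 and 58.8 CPM in DMSO and 77.3, 69.1 and 71.6 CPM in IPRN, thus with the same raised DMSO 3 and IPRN 1. For the partners the correlation with Pex26 ran from -0.74 (Pex13) to 0.75 (Pex10). These correlations rest on 6 libraries in 2 groups and were given no p.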

How the data were processed

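Per the file headers, each library has a table of its own that lists Ensembl genes with their counts and FPKM. The deposited counts are whole numbers without normalization, and the FPKM values were scaled by the authors for gene length and library size. Cutadapt 1.9 is named in the submitters' processing notes. For the aligner, counter, strand setting, build and annotation, the entry is: not given in the sources used here. Positions are printed on GRCm38, where 94.2% of the IDs also found in GENCODE M21 had identical coordinates.

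The count test used edgeR 4.0.16 under R 4.3.3 (TMM scaling, default filter with a minimum count of 10, quasi-likelihood test on group alone, two-sided, adjusted over all 17159 tested genes). All 6 libraries entered 1 fit, and unless another tool is named, p-values come from it. Standard errors and 95% intervals were derived from its F statistic. DESeq2 1.42.0 was an alternative. The test was also tried on simulated data. Replicate pairs differed by far more than counting noise (chi-square 31.2 to 88.8 times its degrees of freedom). A floor of 3 counts equals 0.0382 to 0.0497 CPM and covers counting error only. FPKM was used to order levels, with no test. The members and gene lists were chosen with earlier results of these data known, and the promoter motifs and ontology terms after the values were seen. Some genes of the lists are not reported here and were left out of the lists' counts. Named genes are the peroxins listed, the called genes and the 2 with the highest FPKM of each list, the models overlapping or nearest to Pex26, and the 5 most correlated with it.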

Additional observations from a re-analysis of the deposited data

How the results depend on the processing

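The count of partners called (0 of 7) and that of other peroxins (0 of 5) did not change in the 13 alternative fits. Some of these fits called few genes in all, so an unchanged count of 0 says little. The distance of Pex26 from its partners moved by less than the spread between libraries in each fit. The count of all genes called, 938, was 621 with no filter on low counts, 2312 in DESeq2, 53 without DMSO 1 and IPRN 3 together, 429 with the liver term, and 133 to 1047 with 1 library left out. The count of matrix enzymes called, 1, was 5 in DESeq2, 0 without DMSO 1 and IPRN 3, 0 with the liver term, and 0 to 1 with 1 library left out. For membrane, fission and recycling genes the count of 0 became 1 with the stricter filter, 4 in DESeq2, and 0 to 1 with 1 library left out. The cause of these shifts was not tested.

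Same-numbered replicates did not deviate together (correlations of -0.18, 0.09 and -0.13 for numbers 1, 2 and 3), so the numbers were not taken as pairs. With replicate number as a block 103 genes were called, 0 partners and 0 matrix enzymes, and Pex26 had an adjusted p of 0.0975 (log2 fold change 1.27).

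Small changes turned sign with 1 library left out: Pex14 (-0.042 to 0.072), Pex2 (-0.27 to 0.12), Pex16 (-0.043 to 0.30), Pex19 (-0.23 to 0.0012), Pex11a (-0.20 to 0.059), Pex11g (-0.62 to 0.14), Prdx5 (-0.081 to 0.18), Usp9x (-0.031 to 0.083) and Usp18 (-1.43 to 0.19). Without DMSO 1 and IPRN 3, Pex11g was 0.097 and Usp9x -0.048. None of these was called in any fit.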
